A study of Homo sapiens with 12 samples.

Results

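The centromere and kinetochore components examined here are 35 genes that encode the protein layers between the centromeric DNA of a chromosome and the microtubules of the mitotic spindle. They were taken by symbol from the deposited tables of gene values of 2 mantle cell lymphoma lines, where all 35 were present on 1 row each, of 23617 symbols in the Granta-519 table and 23615 in the JeKo-1 table. Both lines are established human B-cell lymphoma lines, and in this disease a translocation typically places CCND1, which encodes cyclin D1, under an immunoglobulin enhancer. In each line, 3 libraries came from cells infected with a lentivirus carrying a short hairpin RNA against cyclin D1 (shCycD1) and 3 from cells infected with a control hairpin (shCtrl), so the 12 libraries formed 4 groups. All 4 groups were infected and selected with puromycin, and no uninfected cells were analysed here. The labels name a single hairpin against cyclin D1, without its sequence, and a hairpin against another part of the transcript was not analysed here. Per the labels' protocols, Granta-519 was grown in RPMI and JeKo-1 in DMEM, so line and medium cannot be told apart. The libraries were mRNA libraries of whole cultures, in which fewer cells of a type or cell cycle stage and less RNA per cell cannot be told apart. The series design calls the 3 libraries of a group biological replicates, without saying whether each was a separate infection, and all p-values measure the spread between them.

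The centromere is marked by nucleosomes that hold the histone H3 variant CENP-A, which is loaded by its own chaperone. A constitutive network of CENP proteins sits on these nucleosomes, and in mitosis it carries the KNL1, MIS12 and NDC80 complexes, which grip microtubules and assemble the spindle checkpoint. Cyclin D1 with CDK4 or CDK6 inactivates the RB family, which together with E2F factors and the MuvB core represses genes of S phase and mitosis in resting cells. Many kinetochore genes are therefore known to be transcribed periodically, with a peak in G2 and mitosis.

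CCND1 was measured first, as a check of the labels. In Granta-519 it was at 213, 298 and 292 RPKM (reads per kilobase of gene, scaled to library size) in the shCycD1 libraries and 924, 1044 and 874 RPKM in the shCtrl libraries (log2 change -1.83 ± 0.14 (SE), limma adjusted p = 0.000257). In JeKo-1 it was at 65.4, 64.8 and 67.4 RPKM in the shCycD1 libraries and 395, 330 and 315 RPKM in the shCtrl libraries (log2 change -2.38 ± 0.093 (SE), limma adjusted p = 1.96e-06). In both lines every silenced library was below every control library. Low values in the Granta-519 table stepped as they would at 30400000 to 40200000 reads per library (81.4 to 84.6% whole multiples), but also nearly as well at 15100000 to 20100000 (76.3 to 82.5%), so that depth is uncertain, and the depth of JeKo-1 is unknown. The Granta-519 values were per genomic span, introns included, and those of JeKo-1 were not. Which length entered the values of JeKo-1 is not established. Levels of the centromere and kinetochore genes were therefore compared neither between genes nor between the tables. The marker levels and sums that follow mix genes of unlike length and are a rough description only. The B-cell markers MS4A1, CD79A and CD79B averaged at least 183 RPKM in all 4 groups. Of 5 T and NK cell markers the summed level was 0.728 to 0.842 RPKM in shCycD1 and 0.722 to 1.25 RPKM in shCtrl libraries of Granta-519, and 2.32 to 2.55 RPKM in shCycD1 and 2.1 to 2.8 RPKM in shCtrl libraries of JeKo-1. Of 4 myeloid markers MPO was at 0 in every library. The summed level of these 4 was 38.8 to 45.6 RPKM in shCycD1 and 45.4 to 51.5 RPKM in shCtrl libraries of Granta-519, nearly all of it CSF1R, and 2.08 to 2.39 RPKM in shCycD1 and 1.82 to 2.26 RPKM in shCtrl libraries of JeKo-1. Of 5 epithelial and fibroblast markers the summed level was 7.83 to 10.0 RPKM in shCycD1 and 5.89 to 7.02 RPKM in shCtrl libraries of Granta-519, and 0.645 to 1.14 RPKM in shCycD1 and 1.03 to 1.39 RPKM in shCtrl libraries of JeKo-1, where KRT19 and DCN were at 0. COL1A1 made up most of this in Granta-519, at 8.28 RPKM in shCycD1 and 5.78 RPKM in shCtrl libraries (log2 change 0.48, called higher). The part of these few genes in the results was not tested.

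Nearly every centromere and kinetochore gene was lower after cyclin D1 silencing, in both lines, and the fall was larger in JeKo-1. In Granta-519, 34 of the 35 genes passed the filter (3 or more of the 6 libraries at 1 RPKM or above), 33 of them were called lower and 0 higher at a limma adjusted p under 0.05. Of all 12668 genes tested in that line, 18.2% were called lower. CENPI passed the filter there only through its shCtrl libraries, as all 3 shCycD1 libraries were under 1 RPKM. CENPP was the gene left out. Without the filter CENPI was still called lower (limma adjusted p = 0.00524) and CENPP was not called (limma adjusted p = 0.127). The counts in that line were then 33 of 35 lower and 0 higher. In JeKo-1 all 35 passed, and 33 were called lower and 0 higher, where 27.8% of 11866 genes were called lower. The genes called lower in both lines numbered 32 of the 34 tested in both, against 13.1% of 10653 genes. The median log2 change was -1.09 in Granta-519 and -2.37 in JeKo-1, beside medians over all genes of 0.03 and 0.09. In terms of RPKM, the shCycD1 mean stood at a median of 42.6% of the shCtrl mean in Granta-519 (range 32.1 to 89.4%) and 16.4% in JeKo-1 (range 6.41 to 110%).

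The groups were well separated at the level of single libraries. In Granta-519 all 34 genes had all 3 shCycD1 libraries below all 3 shCtrl libraries, as did 24.2% of all genes tested. In JeKo-1 this held for 33 of 35, against 30.5% of all genes. A fall of 1 log2 unit or more was called for 19 genes in Granta-519, where 3% of all genes fell as far, and for 30 in JeKo-1, where 6.98% did. A change called lower with a log2 value of -2 or below was found for none of these genes in Granta-519, where 0.118% of all genes had one, and for 21 of the 35 in JeKo-1, where 2.14% had one. The plot of log2 changes by role sets both lines beside each other.

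**Figure D1:**
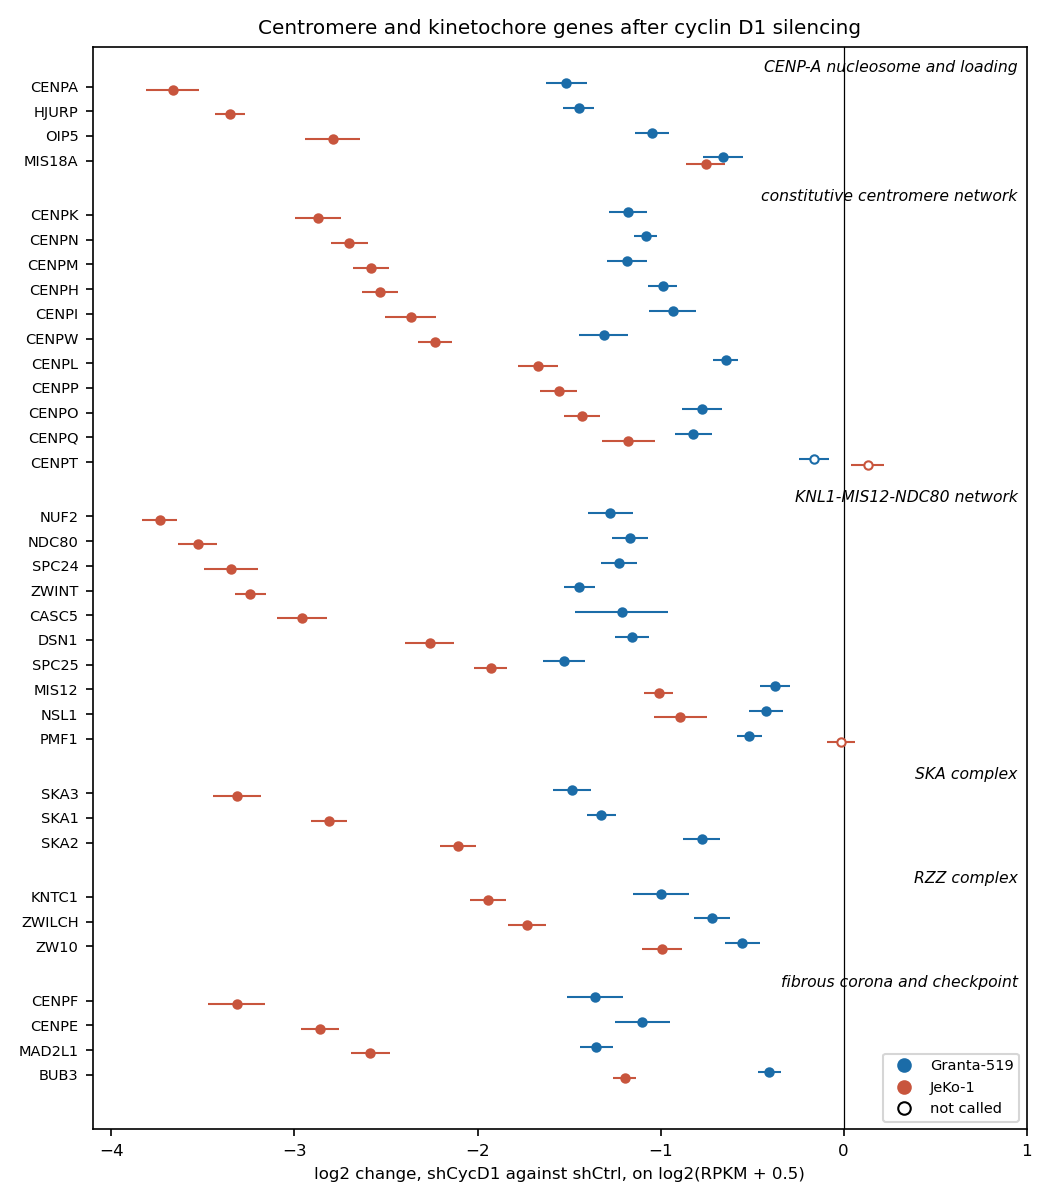
Log2 change (shCycD1 over shCtrl, on the log2(RPKM + 0.5) scale) of each centromere and kinetochore gene in Granta-519 and JeKo-1, grouped by the layer its protein belongs to, with bars of 1 standard error from limma and open circles for genes not called. Most genes lie near the median of -1.09 in Granta-519 and beyond -2 in JeKo-1, while CENPT lies near 0 in both lines and PMF1 near 0 in JeKo-1.

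The Granta-519 result depends on how the libraries are scaled. The tables hold synthetic spike-in RNAs, and scaling by them put the median log2 change of all genes at 0.74 in Granta-519 and 0.03 in JeKo-1, where the deposited values gave 0.03 and 0.09. Under spike-in scaling the median of the 34 genes in Granta-519 was -0.41, with 25 below 0 and 9 above. Of them 5 were called lower (CENPA, HJURP, SKA3, SPC25 and ZWINT). Of all 12668 genes tested in Granta-519, 147 were called lower and 7702 higher under that scaling. The spike-in factors were 0.72, 0.84 and 0.74 in the shCycD1 libraries and 1.10, 1.79 and 1.14 in the shCtrl libraries, of which shCtrl 2 stood highest. With shCtrl 2 left out, a choice made after seeing the data, 22 of 33 genes were called lower under spike-in scaling. Their median was -0.61, and of all 12532 genes tested then, 535 were called lower and 8249 higher. All 34 genes stayed below the median of all genes under either scaling of all 6 libraries. In JeKo-1 the median of the 35 genes was -2.40 with spike-in scaling and 32 were called lower, without MIS18A (limma adjusted p = 0.0538). The changes below are relative to the total of reads, and those of Granta-519 are to be read relative to the other genes of that line.

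**Figure D2:**
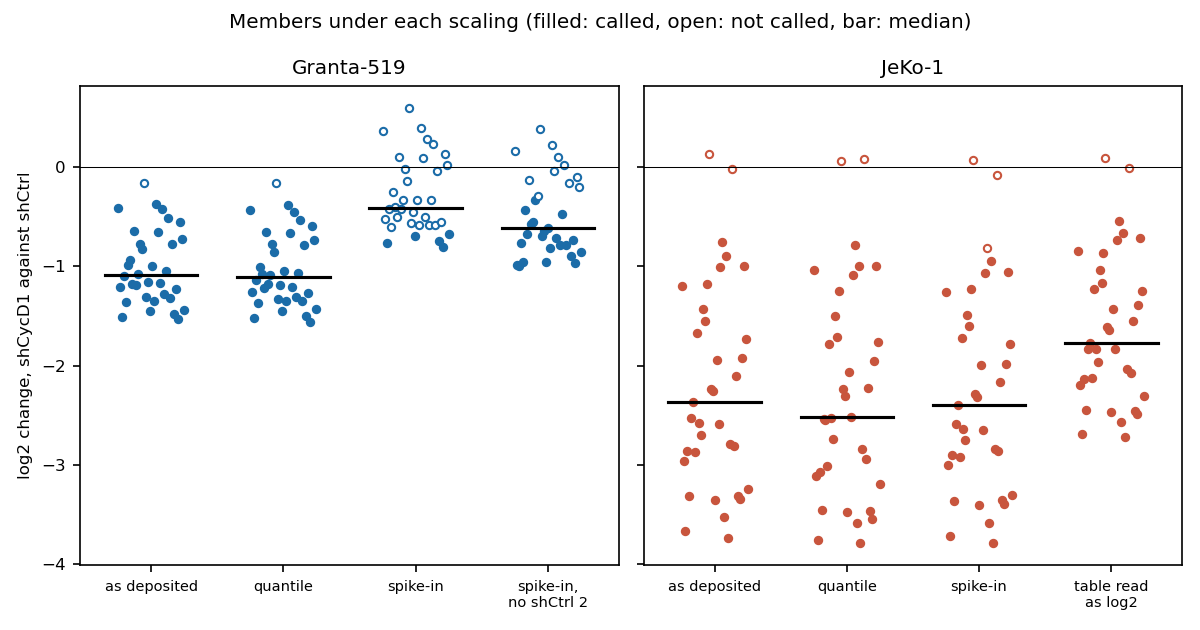
Log2 changes (shCycD1 over shCtrl) of the centromere and kinetochore genes in both lines with the deposited scaling and under other settings (quantile and spike-in scaling, spike-in scaling without shCtrl 2 in Granta-519, and the JeKo-1 table read as log2). Each point is 1 gene, filled where called lower, and the bar is the median. In Granta-519 the median lies at -1.09 with the deposited values and at -0.41 with spike-in scaling, while in JeKo-1 it lies at -2.37 and -2.40.

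Promoter sequences are shown for the 3 genes with the deepest fall in JeKo-1 and for the 3 with the smallest changes there among genes with a matched promoter (MIS18A, whose change was smaller than that of NSL1, had none), chosen after their values were seen, because the genes moved together and their class is known for particular promoter elements. RefSeq promoters of the build GRCh38.p14 (250 bases before to 50 after the start) were matched for 28 of the 35 genes, without MIS18A, CENPH, CENPL, CENPM, CASC5, KNTC1 and BUB3. Only the first promoter listed for a symbol was used, so any other starts of a gene were not searched. The 280 bases ending 30 after the start are printed 5′ to 3′ on the gene's strand, with capitals for matches to the motifs named below. The NUF2 window is chr1:163321704-163321983, that of CENPA chr2:26785806-26786085 and that of NDC80 chr18:2571307-2571586, all on the plus strand. NSL1 is on the minus strand at chr1:212791748-212792027, PMF1 on the plus strand at chr1:156212757-156213036 and CENPT on the minus strand at chr16:67847664-67847943.
NUF2: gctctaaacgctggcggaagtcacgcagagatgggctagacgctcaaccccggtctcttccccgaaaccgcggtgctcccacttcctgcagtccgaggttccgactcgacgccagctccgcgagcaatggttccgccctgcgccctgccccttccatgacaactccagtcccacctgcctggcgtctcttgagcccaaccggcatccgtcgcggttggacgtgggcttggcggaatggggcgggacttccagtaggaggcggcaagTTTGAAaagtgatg
CENPA: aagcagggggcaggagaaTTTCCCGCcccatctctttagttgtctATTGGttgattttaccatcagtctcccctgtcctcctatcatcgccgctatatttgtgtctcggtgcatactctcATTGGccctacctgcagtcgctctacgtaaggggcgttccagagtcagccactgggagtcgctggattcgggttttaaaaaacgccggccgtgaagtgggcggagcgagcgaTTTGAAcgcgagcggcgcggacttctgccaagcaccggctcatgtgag
NDC80: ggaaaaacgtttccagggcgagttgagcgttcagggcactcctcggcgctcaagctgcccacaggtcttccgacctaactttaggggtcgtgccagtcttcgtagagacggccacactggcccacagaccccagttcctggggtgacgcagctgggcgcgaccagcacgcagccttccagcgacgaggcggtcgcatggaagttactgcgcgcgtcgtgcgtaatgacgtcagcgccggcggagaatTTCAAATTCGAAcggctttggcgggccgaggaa
NSL1: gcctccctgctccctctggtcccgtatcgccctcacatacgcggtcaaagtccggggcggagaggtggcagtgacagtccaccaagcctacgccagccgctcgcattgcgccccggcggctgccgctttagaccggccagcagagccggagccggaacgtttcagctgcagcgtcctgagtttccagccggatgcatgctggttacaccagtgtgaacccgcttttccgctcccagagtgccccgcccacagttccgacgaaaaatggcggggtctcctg
PMF1: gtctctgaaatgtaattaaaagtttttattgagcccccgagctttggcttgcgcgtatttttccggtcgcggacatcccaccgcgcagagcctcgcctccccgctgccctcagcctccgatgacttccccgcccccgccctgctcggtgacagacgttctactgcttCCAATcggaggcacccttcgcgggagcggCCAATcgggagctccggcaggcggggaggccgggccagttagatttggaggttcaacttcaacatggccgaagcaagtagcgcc
CENPT: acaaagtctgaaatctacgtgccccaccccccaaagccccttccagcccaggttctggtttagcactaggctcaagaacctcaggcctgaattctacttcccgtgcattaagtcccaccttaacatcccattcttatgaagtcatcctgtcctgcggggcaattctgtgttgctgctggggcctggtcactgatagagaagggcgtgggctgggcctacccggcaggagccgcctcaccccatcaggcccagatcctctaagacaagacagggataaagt

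The element searched for first was the cell cycle genes homology region, a site of the MuvB core, as TTTGAA or TTCGAA. Also searched, on both strands like the first, were E2F sites (TTTCCCGC, TTTGGCGC, TTTCGCGC or TTTGCCGC) and the CCAAT box bound by NF-Y (CCAAT). The cell cycle genes homology region was present in 15 of the 28 promoters (53.6%). It was in 16.6% of all 27305 promoters of the same length, the first listed per symbol. Of these, the 8445 that belong to genes tested in JeKo-1 held it in 11.2%. TTTGAA was in 13 of the 28 (46.4%, against 15.4% of all and 9.7% of the tested genes' promoters) and TTCGAA in 3 (10.7%, against 1.45% and 1.74%). A CCAAT box was in 17 (60.7%, against 35.7% and 37.9%). An E2F site was in 3 (10.7%, against 3.33% and 5.7%). Of the 18 genes with a promoter that fell by 2 log2 units or more in JeKo-1, 12 held either form of the first element, and of the other 10, 3 did. NUF2, CENPA and NDC80 each held it, NDC80 with both forms side by side, and CENPA also held an E2F site and CCAAT boxes. Among the other 3 printed, PMF1 held CCAAT boxes, and no listed motif was found in the windows of NSL1 and CENPT. A match of these letters describes the sequence and does not show a bound site.

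The nucleosome and its loading factors fell the furthest of the layers in JeKo-1, with a median log2 change of -3.07 over 4 genes, against -1.25 in Granta-519. CENPA, the centromeric histone itself, was at 11.7, 11.3 and 14.5 RPKM in the shCycD1 libraries of Granta-519 and 34.7, 35.5 and 39.1 RPKM in its shCtrl libraries (log2 change -1.51 ± 0.11 (SE), limma adjusted p = 0.000219). The JeKo-1 values were 2.12, 1.90 and 2.33 RPKM in the shCycD1 libraries and 28.6, 40.3 and 30.2 RPKM in the shCtrl libraries (log2 change -3.67 ± 0.14 (SE), limma adjusted p = 2.06e-06). The silenced libraries lay below all controls in both lines, and JeKo-1 kept 6.41% of its control level. HJURP, the chaperone that deposits CENP-A, was at 13.2, 14.1 and 14.9 RPKM in the shCycD1 libraries of Granta-519 and 38.9, 36.5 and 42.1 RPKM in its shCtrl libraries (log2 change -1.45 ± 0.084 (SE), limma adjusted p = 0.000156). In JeKo-1 it was at 1.91, 1.94 and 2.09 RPKM in the shCycD1 libraries and 24.2, 24.7 and 25.7 RPKM in the shCtrl libraries (log2 change -3.35 ± 0.082 (SE), limma adjusted p = 6.18e-07). The groups again did not overlap. The MIS18 complex licenses the centromere for this loading, and its subunits OIP5 (also called MIS18 beta) and MIS18A moved unequally. OIP5 fell with log2 changes of -1.04 in Granta-519 and -2.79 in JeKo-1. MIS18A fell with -0.66 and -0.75.

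Among the 11 genes of the constitutive network, 9 of 10 tested fell in Granta-519 and 10 of 11 in JeKo-1. The median log2 changes were -0.96 and -2.23. This network bridges the CENP-A nucleosome and the outer kinetochore. CENPN, which reads the CENP-A nucleosome directly, and CENPL, its partner, fell in both lines. Their log2 changes were -1.08 for CENPN and -0.65 for CENPL in Granta-519, and -2.70 and -1.67 in JeKo-1. CENPH, CENPI, CENPK and CENPM, which form a subcomplex, fell with log2 changes of -0.93 to -1.18 in Granta-519 and -2.37 to -2.87 in JeKo-1. CENPO and CENPQ, which belong to another subcomplex, fell with log2 changes of -0.77 and -0.82 in Granta-519 and -1.43 and -1.18 in JeKo-1. CENPP, of that same subcomplex, was at 0.656, 0.646 and 0.632 RPKM in the shCycD1 libraries of Granta-519 and 0.772, 0.749 and 0.743 RPKM in its shCtrl libraries. It was under the filter there, and without the filter its log2 change was -0.13 (limma adjusted p = 0.127). In JeKo-1 CENPP was at 1.19, 1.42 and 1.30 RPKM in the shCycD1 libraries and 4.44, 5.13 and 4.83 RPKM in the shCtrl libraries (log2 change -1.56 ± 0.10 (SE), limma adjusted p = 1.95e-05). Its silenced libraries were below the controls in both tables.

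CENPT and CENPW form a histone-fold pair that carries the outer kinetochore, and their RNAs moved unequally. CENPT was at 29.1, 26.7 and 31.8 RPKM in the shCycD1 libraries of Granta-519 and 32.8, 33.1 and 32.0 RPKM in its shCtrl libraries (log2 change -0.16 ± 0.081 (SE), limma adjusted p = 0.157). The JeKo-1 values were 9.82, 9.10 and 9.09 RPKM in the shCycD1 libraries and 9.25, 8.27 and 7.95 RPKM in the shCtrl libraries (log2 change 0.13 ± 0.091 (SE), limma adjusted p = 0.238). The groups of JeKo-1 overlapped, and the Granta-519 groups were separated by a margin smaller than the spread of the silenced libraries. CENPW fell clearly, with log2 changes of -1.31 in Granta-519 and -2.23 in JeKo-1. The log2 ratio of CENPW to CENPT was accordingly lower in the shCycD1 libraries, with differences from shCtrl of -1.20 in Granta-519 and -2.43 in JeKo-1. Those ratios did not overlap between groups. CENPT shares its locus with other genes, and no use of strand in the counting is given, so its level is uncertain where they overlap.

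In the outer kinetochore, the KNL1, MIS12 and NDC80 complexes had 10 of 10 genes lower in Granta-519 and 9 of 10 in JeKo-1. The median log2 changes were -1.19 and -2.61. The NDC80 complex, the main microtubule coupler, has 4 subunits, and 3 of them had the most negative log2 changes of this layer in JeKo-1. NUF2, which forms the microtubule-binding end with NDC80, was at 2.32, 2.63 and 3.12 RPKM in the shCycD1 libraries of Granta-519 and 6.45, 7.17 and 7.97 RPKM in its shCtrl libraries (log2 change -1.27 ± 0.12 (SE), limma adjusted p = 0.000507). In JeKo-1 it was at 3.15, 3.55 and 3.33 RPKM in the shCycD1 libraries and 46.0, 54.0 and 52.6 RPKM in the shCtrl libraries (log2 change -3.74 ± 0.093 (SE), limma adjusted p = 6.18e-07). NUF2 had the most negative log2 change of the 35 genes in JeKo-1, and its silenced libraries were below all controls in both lines. NDC80 was at 2.22, 1.97 and 2.44 RPKM in the shCycD1 libraries of Granta-519 and 5.54, 5.33 and 5.88 RPKM in its shCtrl libraries (log2 change -1.17 ± 0.097 (SE), limma adjusted p = 0.000299). The JeKo-1 values were 2.93, 3.57 and 3.71 RPKM in the shCycD1 libraries and 42.8, 47.8 and 42.8 RPKM in the shCtrl libraries (log2 change -3.53 ± 0.11 (SE), limma adjusted p = 8.64e-07). The groups were separate in both lines.

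SPC24 and SPC25 form the other end of the NDC80 complex, which docks on MIS12 and CENP-T. SPC24 was at 1.97, 2.23 and 2.53 RPKM in the shCycD1 libraries of Granta-519 and 5.95, 5.98 and 5.77 RPKM in its shCtrl libraries (log2 change -1.23 ± 0.099 (SE), limma adjusted p = 0.000277). In JeKo-1 it was at 0.785, 1.20 and 0.878 RPKM in the shCycD1 libraries and 16.6, 12.9 and 13.3 RPKM in the shCtrl libraries (log2 change -3.35 ± 0.15 (SE), limma adjusted p = 3.26e-06). SPC24 thus followed NDC80 and NUF2. SPC25 had the most negative log2 change of the 34 genes tested in Granta-519, at 3.92, 3.93 and 4.78 RPKM in the shCycD1 libraries and 11.6, 14.1 and 13.6 RPKM in the shCtrl libraries (log2 change -1.53 ± 0.11 (SE), limma adjusted p = 0.000232). The JeKo-1 values were 8.81, 7.68 and 9.28 RPKM in the shCycD1 libraries and 32.5, 34.5 and 35.1 RPKM in the shCtrl libraries (log2 change -1.93 ± 0.092 (SE), limma adjusted p = 4.65e-06). Its groups were separate in both lines, but its JeKo-1 log2 change was less negative than that of its 3 partners.

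KNL1, listed under its older symbol CASC5, is the checkpoint scaffold of the outer kinetochore, and ZWINT binds it. CASC5 fell, with log2 changes of -1.21 in Granta-519 and -2.96 in JeKo-1. ZWINT was at 108, 125 and 124 RPKM in the shCycD1 libraries of Granta-519 and 306, 344 and 322 RPKM in its shCtrl libraries (log2 change -1.44 ± 0.085 (SE), limma adjusted p = 0.000165). In JeKo-1 ZWINT was at 14.8, 17.0 and 15.1 RPKM in the shCycD1 libraries and 159, 155 and 142 RPKM in the shCtrl libraries (log2 change -3.24 ± 0.083 (SE), limma adjusted p = 6.96e-07). Its groups did not overlap in either line.

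The MIS12 complex links NDC80 and KNL1 to the inner centromere, and its 4 subunits MIS12, DSN1, NSL1 and PMF1 moved by different amounts. The log2 changes were -1.16 for DSN1, -0.37 for MIS12 and -0.42 for NSL1 in Granta-519. In JeKo-1 they were -2.26, -1.01 and -0.89 for the same 3 genes, all called lower. PMF1 was at 11.7, 11.1 and 11.3 RPKM in the shCycD1 libraries of Granta-519 and 16.3, 16.6 and 16.4 RPKM in its shCtrl libraries (log2 change -0.51 ± 0.067 (SE), limma adjusted p = 0.0014). In JeKo-1 it was at 72.8, 78.2 and 70.8 RPKM in the shCycD1 libraries and 74.4, 79.7 and 70.4 RPKM in the shCtrl libraries (log2 change -0.02 ± 0.076 (SE), limma adjusted p = 0.861). PMF1 was separated by group in Granta-519 and overlapped fully in JeKo-1. Within the complex, the log2 ratio of DSN1 to PMF1 differed between shCycD1 and shCtrl libraries by -0.73 in Granta-519 and -2.35 in JeKo-1. That of DSN1 to MIS12 differed by -0.89 and -1.32. The readthrough transcript PMF1-BGLAP overlaps PMF1 on the same strand, so reads could be split between them, and it was called lower in Granta-519 (log2 change -0.49) and higher in JeKo-1 (0.87).

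**Figure D3:**
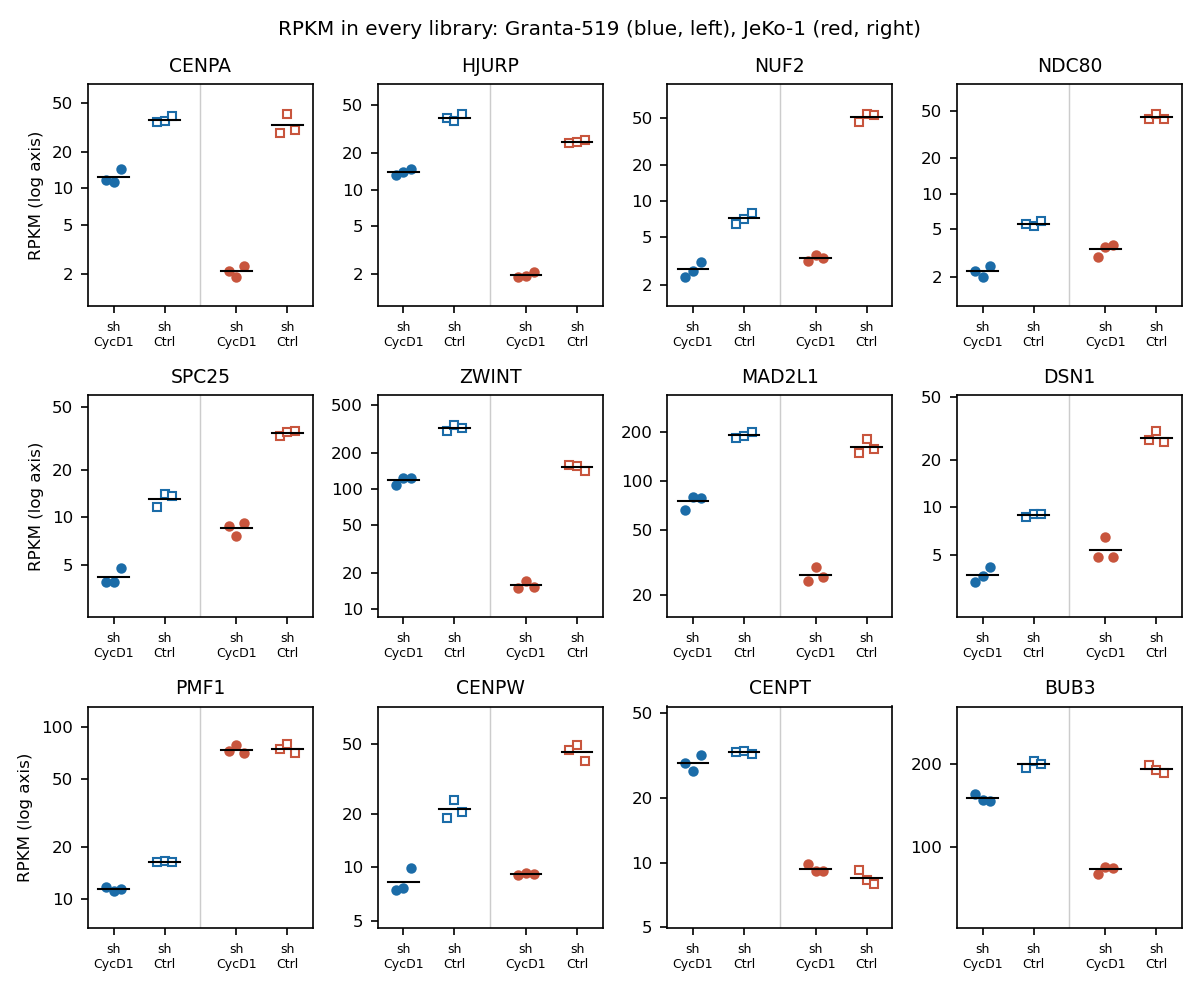
RPKM on a log axis in every library for 12 of the genes, with shCycD1 libraries as filled circles left of shCtrl libraries as open squares, Granta-519 in blue and JeKo-1 in red, and a line at each group's mean. The silenced libraries lie below all controls in each panel, apart from PMF1 and CENPT in JeKo-1, and the levels of the 2 lines are not on a shared scale.

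The SKA complex, which helps the kinetochore to track shrinking microtubules, had 3 of 3 genes lower in each line. SKA3 was at 6.99, 8.49 and 8.29 RPKM in the shCycD1 libraries of Granta-519 and 21.6, 25.2 and 22.4 RPKM in its shCtrl libraries (log2 change -1.48 ± 0.10 (SE), limma adjusted p = 0.0002). In JeKo-1 SKA3 was at 1.24, 1.57 and 1.28 RPKM in the shCycD1 libraries and 15.6, 20.9 and 17.7 RPKM in the shCtrl libraries (log2 change -3.31 ± 0.13 (SE), limma adjusted p = 2.11e-06). Its groups were separate in both lines. The log2 changes of SKA1 were -1.32 in Granta-519 and -2.81 in JeKo-1. Those of SKA2 were -0.78 and -2.11. The log2 ratio of SKA3 to SKA2 differed between shCycD1 and shCtrl libraries by -0.73 in Granta-519 and -1.46 in JeKo-1.

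The RZZ complex, which brings dynein and the checkpoint protein MAD1 to unattached kinetochores, had the smallest median change of the layers in each line. KNTC1 (the Rod subunit), ZWILCH and ZW10 fell with log2 changes of -0.999, -0.72 and -0.55 in Granta-519 and -1.94, -1.73 and -0.99 in JeKo-1. ZW10 also acts in membrane trafficking outside mitosis. The log2 ratio of KNTC1 to ZW10 differed between shCycD1 and shCtrl libraries by -0.53 in Granta-519 and -1.09 in JeKo-1. In Granta-519 the groups nearly met, at -0.136 in shCycD1 2 and -0.061 in shCtrl 2. KNTC1 is among the genes with long transcripts described below, and ZW10 is not. ZWILCH overlaps the ribosomal protein gene RPL4 on the opposite strand, so its level is uncertain.

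Among the corona and checkpoint genes, CENPF, a large protein of the outer kinetochore that is degraded after mitosis, was at 14.9, 19.7 and 17.8 RPKM in the shCycD1 libraries of Granta-519 and 47.5, 37.2 and 52.2 RPKM in its shCtrl libraries (log2 change -1.36 ± 0.15 (SE), limma adjusted p = 0.000825). The JeKo-1 values were 1.46, 1.83 and 1.53 RPKM in the shCycD1 libraries and 18.8, 17.5 and 25.8 RPKM in the shCtrl libraries (log2 change -3.32 ± 0.16 (SE), limma adjusted p = 4.46e-06). The groups did not overlap, and shCtrl 2 was the lowest control library of Granta-519. CENPE, the kinesin that moves chromosomes to the spindle equator, fell with log2 changes of -1.10 in Granta-519 and -2.86 in JeKo-1. MAD2L1, the checkpoint protein that holds back the anaphase-promoting complex, had log2 changes of -1.35 and -2.59. BUB3, a checkpoint protein that binds BUB1 and BUBR1, had -0.41 and -1.20, all called lower. The log2 ratio of MAD2L1 to BUB3 differed between shCycD1 and shCtrl libraries by -0.95 in Granta-519 and -1.41 in JeKo-1.

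Genes with long transcripts deviated from the other libraries of their group in several libraries of Granta-519. A deviation here is the log2 value in a library minus the mean of the other libraries of its group. For CENPF, CENPE, CASC5, KNTC1 and BUB3 the median deviation was -0.32, 0.27 and -0.04 log2 units in shCycD1 1, 2 and 3, beside -0.14, 0.02 and 0.12 for the other genes. In shCtrl 1, 2 and 3 it was 0.11, -0.41 and 0.31, beside -0.10, 0.03 and 0.07 for the other genes. The deviation was farthest from 0 in shCtrl 2, where the 5 genes ranged from -0.82 to 0.06. Over the 34 genes, deviation and transcript length had Spearman correlations of -0.381, 0.49 and -0.344 in the shCycD1 libraries and 0.521, -0.671 and 0.553 in the shCtrl libraries, given as a description across genes. With any single library left out, all 5 genes were still called lower in Granta-519. In JeKo-1, over 35 genes, these correlations were -0.0185, -0.0134 and -0.0104 in the shCycD1 libraries and -0.183, -0.371 and 0.541 in the shCtrl libraries. In shCtrl 3 of JeKo-1 the long genes, with CENPP added, had a median deviation of 0.215, beside -0.051 for the other genes. The part of transcript length in the changes of these genes was not tested in either line.

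The difference between the lines was tested in a joint fit of the 12 libraries, as the Granta-519 change minus the JeKo-1 change, so that a positive value means a larger fall in JeKo-1. It was called for 31 of the 34 genes tested in both lines, positive for 30 and negative for PMF1. Of all 10653 genes, 19.3% had a positive and 22.6% a negative called difference. The median difference was 1.37 over the 34 genes and -0.02 over all genes. With spike-in scaling these medians were 2.1 and 0.76, and they were 0.70 and -0.0054 where log2 was taken as the scale of the JeKo-1 values. The 5 largest were 2.46 ± 0.16 for NUF2, 2.36 ± 0.14 for NDC80, 2.15 ± 0.19 for CENPA, 2.12 ± 0.18 for SPC24 and 1.96 ± 0.23 for CENPF (SE), with limma adjusted p from 6.14e-07 to 6.56e-05. PMF1 had a difference of -0.50 ± 0.094 (SE, limma adjusted p = 0.00158), with the fall in Granta-519. With spike-in scaling it was 0.31 and not called (limma adjusted p = 0.57). The difference was not called for MIS18A (0.10 ± 0.16, limma adjusted p = 0.654), CENPQ (0.35 ± 0.18, limma adjusted p = 0.137) and CENPT (-0.29 ± 0.12, limma adjusted p = 0.0605). For SPC25 it was 0.40 ± 0.15 (SE, limma adjusted p = 0.0469) and for NSL1 0.47 ± 0.18 (SE, limma adjusted p = 0.0495), so both were near the threshold. With single libraries left out in turn, 12 omissions in all, NSL1 lost this call in 10 (limma adjusted p up to 0.116), SPC25 in 8 (up to 0.118) and ZW10, with a difference of 0.44, in 7 (up to 0.0748). CCND1, the target, had a difference of 0.55 ± 0.18 (SE, limma adjusted p = 0.0306). Its call was lost in 7 omissions (up to 0.0746), and its sign turned where log2 was taken as the JeKo-1 scale. The part of unequal silencing in the differences between lines was not tested.

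The order of the genes was similar in both lines. Over the 34 genes the log2 changes had a Pearson correlation of 0.867 and a Spearman correlation of 0.807, against a Pearson correlation of 0.559 over all 10653 genes. These correlations are across genes, which are not independent replicates. The natural log behind the JeKo-1 table was inferred, and read as log2 instead the median change in JeKo-1 was -1.77 and 25 differences were called. The plot of JeKo-1 against Granta-519 changes shows the spread.

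**Figure D4:**
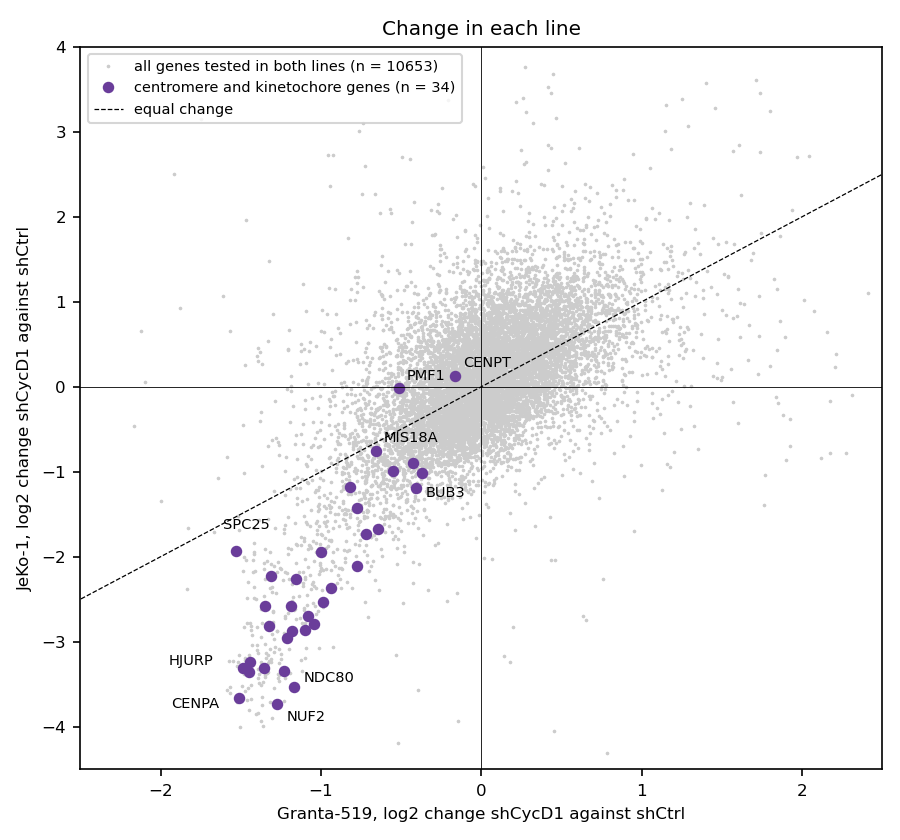
Log2 change in JeKo-1 against log2 change in Granta-519 (shCycD1 over shCtrl), with the centromere and kinetochore genes coloured over all genes tested in both lines in gray, of which 29 lie outside the axes, and a line of equal change. Nearly all coloured points lie below the line of equal change, while PMF1 and CENPT lie above it, CENPT close to the origin.

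Other centromere and kinetochore genes, listed from knowledge of the pathway, mostly moved in the same direction. This list, like those of regulators and S phase genes below, was chosen with earlier results of these data known. It is therefore not an independent check. In Granta-519, 24 of 27 tested were called lower and 0 higher, with a median of -1.09, and in JeKo-1, 23 of 28 were called lower and 2 higher, with a median of -2.45. The background of genes called higher was 22.4% in Granta-519 and 36.7% in JeKo-1. BIRC5 and PLK1, a subunit of the chromosomal passenger complex and a mitotic kinase, fell with log2 changes of -1.52 and -1.50 in Granta-519, and AURKB, the kinase of that complex, with -1.37. In JeKo-1 their log2 changes were -3.72 for BIRC5, -3.67 for PLK1 and -3.74 for AURKB. CENPB, which binds a motif in alpha satellite DNA, had a log2 change of -0.33 in Granta-519 and 0.43 in JeKo-1, both called. With spike-in scaling these were 0.44 ± 0.28 (SE, limma adjusted p = 0.149) and 0.37 ± 0.33 (SE, limma adjusted p = 0.446). Neither call held, and the sign in Granta-519 turned. The JeKo-1 value of CENPB moved little, while its SE rose from 0.091. The checkpoint gene MAD1L1 was under the filter in Granta-519 and was called higher in JeKo-1 (log2 change 0.45 ± 0.11 (SE)). With spike-in scaling that call was lost (0.39 ± 0.33 (SE), limma adjusted p = 0.416), with a wider SE and a similar value. STRA13, MAD2L1BP and NDE1 were not called in either line.

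Regulators of these genes were mixed, with 10 of 20 lower and 2 higher in Granta-519 and 12 of 20 lower and 4 higher in JeKo-1. E2F8 had the most negative log2 change, -1.57 in Granta-519 and -3.60 in JeKo-1. FOXM1 and MYBL2, the transcription factors that work with the MuvB core at G2 and mitotic genes, fell with log2 changes of -1.48 each in Granta-519 and -3.38 and -2.82 in JeKo-1. TFDP2 and LIN37 rose by 0.34 and 0.50 in Granta-519. In JeKo-1 E2F4, E2F5, TFDP2 and RBL2 rose by 0.71, 0.93, 1.11 and 0.78 log2 units. Of these E2F4 and RBL2 lost the call with spike-in scaling (limma adjusted p = 0.166 and 0.0806). Their values were then 0.64 ± 0.35 and 0.72 ± 0.32 (SE), where the SE had been 0.088 and 0.099. The 12 S phase genes, such as the replication licensing factors MCM2 and CDC6, were all called lower in both lines, with medians of -1.33 in Granta-519 and -2.48 in JeKo-1, close to those of the centromere and kinetochore genes. With spike-in scaling 4 of these 12 were called lower in Granta-519, against 147 of all 12668 genes tested.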

How the data were processed

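The authors sequenced mRNA of 12 libraries and deposited 1 table of gene values per line, which the deposited names call RPKM. They were taken to be natural log values of RPKM + 1: per the file headers the deposited tables name samples only, and the log base had to be inferred. In Granta-519, 81.4 to 84.6% of low values were whole multiples of a step with the natural log and genomic span, against 65.3 to 67.7% with log2. For JeKo-1 the natural log is inferred from the spread of the spike-in RNAs relative to Granta-519 (median ratio 0.99). Named in the submitters' processing notes, without a role, are FastQC, TopHat2 2.1.1, limma 3.9 and the builds GRCh37 and hg19. For the read counter, annotation, strand setting and log transform, the entry is not given in the sources used here.

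Values were taken out of the log, and 1 row was kept per symbol, that with the highest mean. limma 3.58.1 (R 4.3.3) was run on each line separately, on log2(RPKM + 0.5), which understates changes of low genes, for genes at 1 RPKM or more in at least 3 of 6 libraries. Benjamini-Hochberg adjustment ran over all genes tested, and adjusted p under 0.05 was called. A joint fit gave the difference between lines. The fits were tested on data simulated with known changes and independent noise. No shift of whole libraries was simulated, so this test could not address the scaling. Groups and replicate numbers came from the sample titles, and 0 columns lacked a sample. The members and lists were chosen with earlier results of these data known. Genes given with every library were CCND1, the 5 largest changes in each line, the 5 largest differences, and every member not called lower in a line. Alternatives were the pseudocount, the filter, quantile and spike-in scaling, library weights, variance trend, repeated symbols, the log base, a replicate block, and leaving out each library.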

Additional observations from a re-analysis of the deposited data

Results flagged for a closer look

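The change after cyclin D1 silencing differed between the lines for 31 of the 34 genes tested in both, by the test of the difference itself in the joint limma fit (adjusted p under 0.05). All values are the Granta-519 log2 change minus the JeKo-1 log2 change, and a positive value means a larger fall in JeKo-1. For CENP-A and its loading the differences were 2.15 for CENPA, 1.91 for HJURP and 1.75 for OIP5. In the constitutive network they were 1.54 for CENPH, 1.43 for CENPI, 1.69 for CENPK, 1.03 for CENPL, 1.40 for CENPM, 1.62 for CENPN, 0.66 for CENPO and 0.92 for CENPW. In the outer kinetochore they were 1.75 for CASC5, 1.80 for ZWINT, 1.10 for DSN1, 0.64 for MIS12, 0.47 for NSL1 and -0.50 for PMF1. For the NDC80 complex they were 2.36 for NDC80, 2.46 for NUF2, 2.12 for SPC24 and 0.40 for SPC25. For the SKA complex they were 1.49 for SKA1, 1.33 for SKA2 and 1.83 for SKA3. For the RZZ complex they were 0.94 for KNTC1, 0.44 for ZW10 and 1.01 for ZWILCH. For the corona and checkpoint they were 1.76 for CENPE, 1.96 for CENPF, 1.24 for MAD2L1 and 0.79 for BUB3.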

How the results depend on the processing

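In Granta-519 spike-in scaling lowered the centromere and kinetochore genes called lower to 5 and moved their median to -0.41. It left 5 other centromere genes lower and 2 higher, 5 regulators lower and 6 higher, and 4 S phase genes lower. Of all 12668 genes tested, 147 were called lower and 7702 higher under that scaling. The log2 changes above 0 under that scaling were 0.10 for MIS18A, 0.11 for CENPL, 0.60 for CENPT, 0.40 for MIS12, 0.28 for NSL1, 0.23 for PMF1, 0.13 for ZW10, 0.019 for ZWILCH and 0.36 for BUB3. With shCtrl 2 also left out, a choice made after seeing the data, the median was -0.61, and 3 other centromere genes and 10 regulators were higher. Of all 12532 genes tested then, 535 were called lower and 8249 higher. CENPT (0.39), MIS12 (0.22), NSL1 (0.10), PMF1 (0.022) and BUB3 (0.16) were above 0. In JeKo-1 spike-in scaling left 0 other centromere genes and 2 regulators higher, where 1707 of all 11866 genes were called higher. The difference between lines became 0.53 for CENPT and 0.31 for PMF1, and the median difference 2.1.

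A pseudocount of 0.1 gave a median of -1.20 in Granta-519 (-2.60 in JeKo-1), and 1 gave -1.01 (-2.18). A mean RPKM of at least 5 gave a JeKo-1 median of -2.53 and left 1 regulator higher in Granta-519. Quantile normalization gave a JeKo-1 median of -2.52 and put PMF1 there at 0.079. Differences lost their call for NSL1, SPC25 and ZW10 with a pseudocount of 0.1, NSL1 and SPC25 without the filter, NSL1 with a mean RPKM of at least 5, and SPC25 and CCND1 with quantile normalization. Reading JeKo-1 values as log2, the median there was -1.77, the median difference 0.70, and the differences of MIS18A (-0.12), SPC25 (-0.14) and CCND1 (-0.16) reversed, while CENPO, CENPW, NSL1, KNTC1 and ZW10 lost the call.

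Leaving out each library in turn left 32 to 33 of these genes lower in Granta-519 (medians -1.12 to -1.06) and 33 in JeKo-1 (medians -2.46 to -2.27), 27 to 33 of their differences called, and 1 to 2 regulators higher in Granta-519. The differences that lost a call were those of NSL1, SPC25 and ZW10 (and of CCND1, which is not counted among these genes), and CENPI could not be tested in Granta-519 without any of the shCtrl libraries, when it was under the filter. NSL1 lost its Granta-519 call without shCycD1 1 (limma adjusted p = 0.0515). PMF1 in JeKo-1 ranged from -0.060 to 0.030, above 0 without shCtrl 2 or shCycD1 3 (0.014).

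Same-numbered libraries did not deviate together in every pair (correlations of 0.0055, -0.124 and 0.033 for Granta-519, against 0.187, 0.095 and 0.103 for JeKo-1), so the numbers were not taken as pairs. Each JeKo-1 library correlated best with its own number, a hint from the data only. With the replicate block 33 of these genes were lower in each line and 32 differences were called, with CENPQ added (0.35, limma adjusted p = 0.0285). The cause of these shifts was not tested.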
